A study of Mus musculus with 137 samples.

Results

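The comparison is of bone marrow-derived macrophages from Beclin1F121A/F121A mice (F121A) with macrophages of littermate control mice (WT) after 6 h of stimulation, across all genes. Its members are the 12 libraries of the knock-in (KI) cohort whose titles give this time, 6 F121A and 6 WT, out of 36 libraries in that cohort and 137 in the series. The series also holds macrophages with Beclin1 deleted, from Beclin1flox/flox-LysM-Cre+ mice, in a cohort called KO2 here, which enters once below. LysM-Cre is a Cre recombinase driven from the Lyz2 locus and acts in myeloid cells, so those macrophages lose Beclin1 through a cell type-restricted Cre, whereas F121A is not tied to a Cre. Both groups came from mice aged 7 weeks, whose marrow was grown for 7 days in 20 ng/ml M-CSF, replated, and given 100 ng/ml lipopolysaccharide (LPS) together with 100 ng/ml interferon-gamma. Both groups were stimulated, and the unstimulated (0 h) and 24 h libraries of the cohort serve only to ask whether a difference at 6 h was also there at the other times. Libraries were made by Smart-Seq2, which copies polyadenylated RNA with an oligo(dT) primer, amplifies it and does not record the strand.

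Beclin1 is the scaffold subunit of the class III phosphatidylinositol 3-kinase complex, which marks membranes with phosphatidylinositol 3-phosphate and so starts autophagosome formation and endosome maturation. BCL2 and BCL-XL bind the BH3 domain of Beclin1 and hold it inactive. F121A replaces a phenylalanine of that domain with alanine and weakens this binding, so the allele is used as a model of raised basal autophagy. In macrophages LPS acts through Toll-like receptor 4 on NF-kB and on type I interferon induction, and interferon-gamma acts through its own receptor on a separate set of target genes.

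The changed residue lies in exon 6 of Becn1, on the minus strand at chr11:101295414-101295416 of GRCm38. The annotated protein has 448 residues encoded by 11 coding exons. The reference coding sequence around it is shown to place the allele, with the phenylalanine codon in capitals and 30 bases on either side. The allele itself was not read here, since the files hold counts per gene.
Becn1: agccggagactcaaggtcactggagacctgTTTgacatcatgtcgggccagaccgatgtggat

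The 12 libraries held 4613210 to 10422416 counts in WT and 6501642 to 8856029 in F121A. The first principal component of the log2 values of the 12 libraries, 20.2% of their variance, separated the genotypes, from -32.3 to -2.91 in WT and from 10.4 to 28.9 in F121A. WT replicate 5 stood apart, with 5.40% of its counts from mitochondrially encoded genes against 3.15% to 3.61% in the other WT libraries and 2.89% to 3.38% in F121A. WT replicate 1 has a title giving 6 h and a description giving 24 h, and it is kept here by its title. The labels do not say that the libraries of a group came from separate mice, so p-values measure the spread between these libraries. The library numbers run from 7 to 12 in WT and from 25 to 30 in F121A, so whatever they mark cannot be told apart from the genotype. The labels do not say what these numbers mark. Xist was at 73.7 to 125 CPM (a count scaled to a library total common to all libraries) in all 12 libraries with Y-linked genes at 1.52 CPM or less, a female pattern in both groups.

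Of 34573 gene symbols, 11500 were expressed enough to be tested. A gene is called here where edgeR's quasi-likelihood test, fitted on all 36 libraries of the cohort, gave an adjusted p under 0.05. At 6 h 921 genes (8.01% of those tested) were higher in F121A and 401 (3.49%) were lower, with 2724 genes at an unadjusted p under 0.05. Differences were small for most of them: the median absolute log2 fold change of the called genes was 0.57, and 133 of the higher and 41 of the lower calls reached an absolute value of 1. The median log2 fold change over all genes tested was 0.02. The counts of calls in the gene lists below are to be read beside these shares of 8.01% and 3.49%. The share of all tested genes whose groups do not overlap was not counted. Statements on overlap below therefore describe single genes and add no support to a call. Without WT replicate 1 there were 1181 calls, and without WT replicate 5 there were 1199, against 1322 with both. These are bulk libraries, so fewer cells of a type and less RNA per cell cannot be told apart in any value below.

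**Figure D1:**
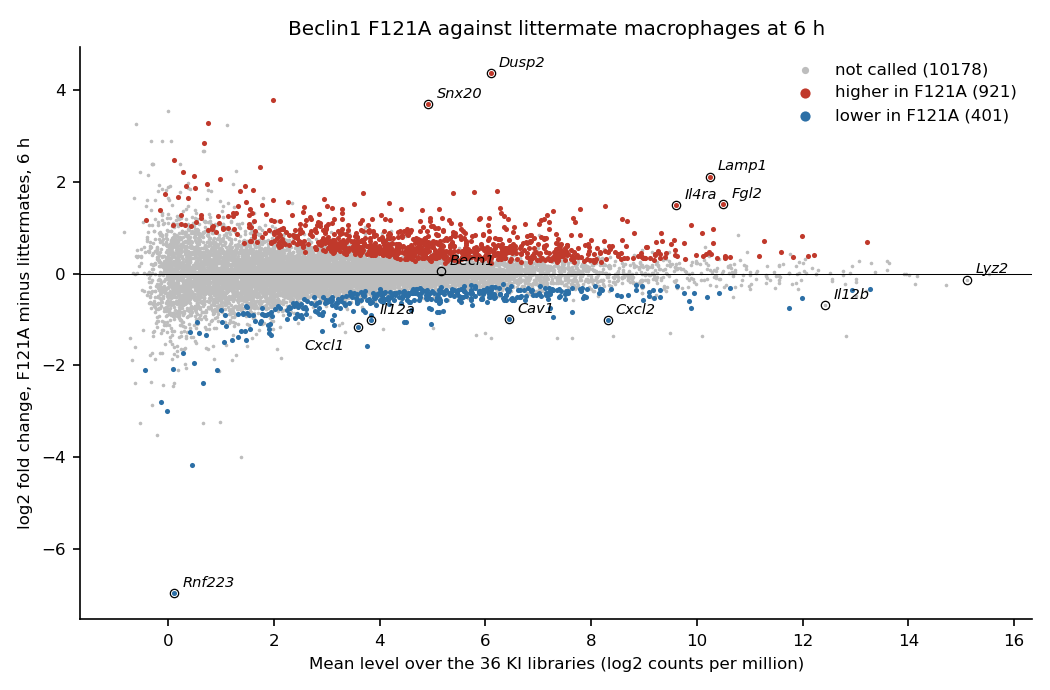
Mean level over the 36 KI libraries (x axis, log2 CPM) against the log2 fold change of F121A over littermates at 6 h (y axis) for the 11500 genes tested; red points are the 921 genes called higher, blue points the 401 called lower, grey points the rest, and circles mark named genes. Dusp2 lies highest, while Becn1 and Lyz2 lie near 0.

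Becn1 itself did not differ. WT libraries held 24.3, 30.5 and 34.9 CPM (lowest, median, highest) and F121A libraries 25.2, 29.8 and 32.3 CPM. The groups overlapped over most of their range, and the log2 fold change was 0.05 ± 0.09 (SE, n = 6 and 6, adjusted p = 0.804). Lyz2, the lysozyme gene of macrophages, had 31659 to 35616 CPM in WT and 28682 to 30298 CPM in F121A. The groups did not overlap for Lyz2, yet its log2 fold change of -0.13 ± 0.09 did not pass the test (adjusted p = 0.413).

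Most subunits and partners of the Beclin1 complex were at similar levels. Of 11 genes of the class III PI3-kinase list tested, 2 rose and none fell, and the median log2 fold change was 0.12. The larger rise was that of 5031414D18Rik, the symbol the files use for Rubcnl (Pacer), which binds the UVRAG-containing Beclin1 complex and promotes autophagosome maturation. It stood at 31.4, 35.3 and 37.7 CPM in WT and at 57.4, 63.3 and 73.4 CPM in F121A. Every F121A library was above every WT library, with a log2 fold change of 0.93 ± 0.11 (adjusted p = 2.3e-08). Sh3glb1 (Bif-1), which joins the complex through UVRAG, rose by 0.32 ± 0.10 on the log2 scale (adjusted p = 0.0246), with the groups overlapping, and it lost its call without WT replicate 5 (adjusted p = 0.0570). The kinase Pik3c3 (0.26 ± 0.14), its regulatory subunit Pik3r4 (-0.19 ± 0.16) and the autophagy-specific subunit Atg14 (-0.03 ± 0.22) did not pass the test. Neither did Uvrag (0.21 ± 0.14), the Atg14 partner Nrbf2 (0.29 ± 0.12), Ambra1 (0.12 ± 0.14), Vmp1 (-0.25 ± 0.09) or the inhibitor Rubicon, listed as 1700021K19Rik (-0.30 ± 0.21). Vmp1 had 58.4 to 86.8 CPM in WT and 45.1 to 56.3 CPM in F121A, without overlap. With only the 12 libraries of 6 h in the fit, 1 of the 11 genes was called higher and 1 lower.

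The BCL2 family, which holds the inhibitors whose binding F121A weakens, showed 2 calls among 18 tested members, both higher and both at very low levels. Bcl2 had 0 to 0.192 CPM in WT and 0.154 to 0.952 CPM in F121A, and Bbc3 (Puma) had 0.434 to 1.07 and 0.452 to 2.92 CPM. Their log2 fold changes were 2.47 ± 0.72 (adjusted p = 0.0176) and 1.11 ± 0.35 (adjusted p = 0.0303), and Bbc3 lost its call without WT replicate 1 (adjusted p = 0.0530) or replicate 5 (adjusted p = 0.0594). The family members at higher levels showed no call: Bcl2l1, which encodes BCL-XL, had 58.1 to 75.3 CPM in WT and 65.5 to 83.5 CPM in F121A (0.16 ± 0.12). Mcl1 (0.19 ± 0.11), Bcl2l11 (0.02 ± 0.08), Bid (0.02 ± 0.11), Bax (-0.09 ± 0.12), Bcl2l2 (0.03 ± 0.24), Bcl2l13 (0.01 ± 0.17), Bad (0.49 ± 0.19) and Bak1 (-0.34 ± 0.38) also did not pass. Bcl2a1a (-0.31 ± 0.19), Bcl2a1b (-0.19 ± 0.14) and Bcl2a1d (-0.20 ± 0.18) are near-identical copies whose reads can be split between them, so each value is uncertain. Pmaip1 (Noxa, -0.30 ± 0.11, adjusted p = 0.0688), the mitophagy receptors Bnip3 (-0.31 ± 0.14) and Bnip3l (-0.26 ± 0.14), and Bmf (-0.90 ± 0.89, near 0 CPM) complete the family. With only the 12 libraries of 6 h in the fit, Bnip3 (adjusted p = 0.0111) and Pmaip1 (adjusted p = 0.0202) were called lower.

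The largest increase was in Dusp2, a nuclear phosphatase that switches off MAP kinases. WT libraries held 9.31, 11.7 and 22.1 CPM (lowest, median, highest) and F121A libraries 141, 271 and 387 CPM, so the groups were far apart. The log2 fold change was 4.37 ± 0.25 (20.7-fold, adjusted p = 1.7e-16). Snx20, a sorting nexin that carries the adhesion protein PSGL-1 to endosomes, went from 1.37, 2.53 and 4.99 CPM in WT to 15, 36.3 and 47.7 CPM in F121A (3.69 ± 0.43, adjusted p = 4.5e-08). Lamp1, a major glycoprotein of the lysosomal membrane, had 162, 291 and 519 CPM in WT and 949, 1387 and 1556 CPM in F121A (2.11 ± 0.24, adjusted p = 2.7e-08). Neither gene's groups overlapped, though within each group the highest library exceeded the lowest severalfold for Snx20.

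The other genes among the 12 with the largest increases at a mean log2 CPM of 3 or more were Zfand5 (1.81 ± 0.19), the small GTPase Rac1 (1.77 ± 0.36), the transcription factor Cebpd (1.76 ± 0.23), the membrane-remodelling sorting nexin Snx18 (1.75 ± 0.22), the metalloprotease inhibitor Timp1 (1.53 ± 0.16), the stress gene Gadd45g (1.51 ± 0.33), the secreted immunoregulator Fgl2 (1.51 ± 0.12), the interleukin-4 receptor chain Il4ra (1.49 ± 0.13) and the homeobox gene Hlx (1.48 ± 0.30). Fgl2 and Il4ra were the highest of these in CPM. Fgl2 had 945, 1209.7 and 1469.8 CPM in WT and 2917, 3299.7 and 3589 CPM in F121A. Il4ra had 432, 625 and 718 CPM in WT and 1522, 1700.1 and 1797 CPM in F121A. The groups did not overlap for any of these 9 genes except Hlx, for which 5 of 6 F121A libraries lay above all WT libraries. These genes were chosen for large differences in the same libraries, so their separation largely follows from the choice. Gadd45g stayed low in both groups, at 0.716 to 1.30 CPM in WT and 1.58 to 3.45 CPM in F121A.

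**Figure D2:**
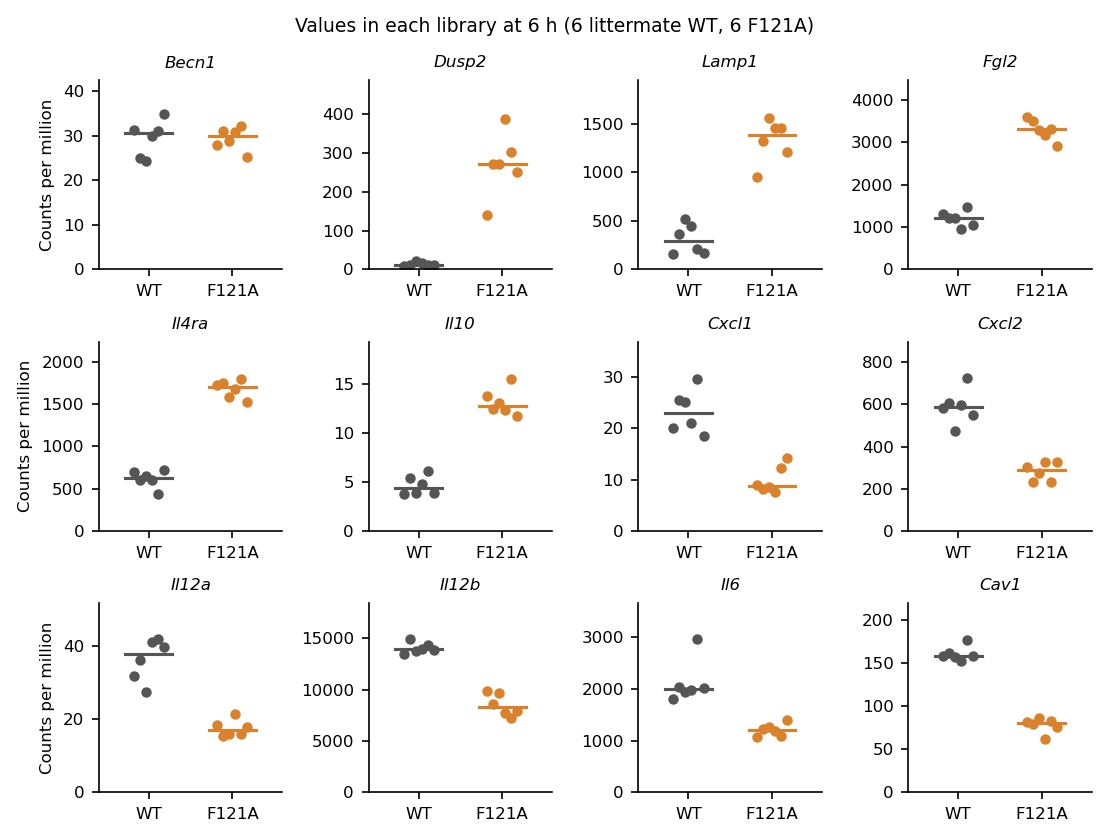
CPM at 6 h (y axis, from 0) in each of the 6 littermate WT (grey) and 6 F121A (orange) libraries for 12 genes, with the group median as a bar. Becn1 overlaps between the groups, whereas the other 11 genes do not; Il12b among them was not called.

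Among called genes with a mean log2 CPM of 3 or more over the 36 KI libraries, the 12 lowest in F121A included 3 neutrophil-attracting CXC chemokines. Some called genes at lower mean levels fell further, such as Arhgef18 (-3.00). Cxcl1 stood at 18.6, 23.1 and 29.7 CPM in WT and 7.69, 8.72 and 14.3 CPM in F121A (-1.16 ± 0.16, adjusted p = 1.7e-06). Cxcl2 stood at 473, 588 and 724 CPM in WT and 231, 290.0 and 328 CPM in F121A (-1.01 ± 0.10, adjusted p = 9.9e-10). Cxcl3 stood at 7.37, 10.8 and 16.6 CPM in WT and 3.90, 5.23 and 6.27 CPM in F121A (-1.09 ± 0.22, adjusted p = 4.4e-04). All 6 F121A libraries were below all 6 WT libraries for each of these chemokines, which signal through CXCR2. Across the chemokine list of 18 tested genes 4 fell and 5 rose, with a median log2 fold change of -0.01. The fourth that fell was Ccl9 (-0.43), and those that rose were the monocyte attractants Ccl2 (0.42), Ccl7 (1.03) and Ccl12 (0.43), Ccl4 (0.56) and the CXCR3 ligand Cxcl11 (0.73). Ccl7 went from 20.6, 25.2 and 29.9 CPM to 47.7, 49.9 and 56.4 CPM without overlap. Without WT replicate 1, 3 chemokines rose. The other CXCR3 ligands, chosen after their values were seen, did not pass the test: Cxcl10 (0.05 ± 0.13) and Cxcl9 (-0.01 ± 0.35). None of 14 chemokine receptor genes was called by edgeR, with 4 at an unadjusted p under 0.05, and DESeq2 called 2 higher and 1 lower. Ccrl2, among the most abundant of them, was at -0.32 ± 0.13 (adjusted p = 0.104) and passed without WT replicate 5 (adjusted p = 0.0418).

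The other 9 of the 12 lowest genes were Nav2 (-1.57 ± 0.46), Larp4 (-1.11 ± 0.27), G530011O06Rik (-1.06 ± 0.29), the lipid-presenting Cd1d1 (-1.05 ± 0.35), the transferrin receptor Tfrc (-1.01 ± 0.28), Il12a, the caveolar coat gene Cav1 (-0.99 ± 0.12), the cystine transporter Slc7a11 (-0.94 ± 0.17) and Rbfa (-0.91 ± 0.29). Cav1 was at 152, 158 and 177 CPM in WT and 61.4, 80.3 and 86.1 CPM in F121A, and Slc7a11 at 102, 122 and 159 CPM in WT and 58.5, 62.4 and 65.1 CPM in F121A. Cav1, Slc7a11, Tfrc and G530011O06Rik did not overlap between the groups. Nav2, Cd1d1 and Rbfa were at 2.98 CPM or less in every library at 6 h. Nav2 and Cd1d1 lost their call without WT replicate 1 (adjusted p = 0.0555 and 0.0681). Cd1d1 and Tfrc lost it without WT replicate 5 (adjusted p = 0.0737 and 0.0583), and Tfrc was highest, at 8.03 CPM, in a single WT library.

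Cytokine genes moved in both directions. Of 18 tested, 4 fell and 3 rose, and the median log2 fold change was -0.06. Il12a, the p35 chain of interleukin-12, had 27.5, 37.8 and 41.7 CPM in WT and 15.3, 16.9 and 21.5 CPM in F121A (-1.01 ± 0.15, adjusted p = 9.3e-06). Il10, the anti-inflammatory cytokine that restrains interleukin-12 production, had 3.74, 4.34 and 6.15 CPM in WT and 11.7, 12.7 and 15.5 CPM in F121A (1.56 ± 0.23, adjusted p = 6.4e-06). The groups did not overlap for either gene, which moved in opposite directions. Tnfsf9 (4-1BB ligand) rose by 0.74 ± 0.11 (adjusted p = 4.1e-06) and Tnfsf10 by 0.46 (adjusted p = 0.00832), while Il6 (-0.76), Il1a (-0.59) and Tnfsf15 (-0.59) fell.

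Il12b, Tnf and Il1b, among the most abundant inflammatory transcripts, were lower in every F121A library and were not called in the fit of all 36 libraries. They were called lower with the 6 h libraries alone and with no filter on low counts, Il12b also with replicates summed in threes and Tnf with them summed in pairs. These genes and Ifnb1 are named because of these values. Il12b, the p40 chain shared by interleukin-12 and interleukin-23, had 13479, 13898 and 14953 CPM in WT and 7239, 8278 and 9819.6 CPM in F121A, with no overlap. In the fit of all 36 libraries its log2 fold change was -0.68 ± 0.37 (adjusted p = 0.263), and in the fit of the 12 libraries at 6 h it was -0.72 (adjusted p = 4.7e-05). Tnf had 3189.9, 3762 and 4227 CPM in WT and 2364, 2610.4 and 2843 CPM in F121A, also without overlap. It gave -0.50 ± 0.24 (adjusted p = 0.197) over all libraries and -0.54 (adjusted p = 9.2e-04) over those at 6 h. Il1b followed the same pattern, at 8673 to 9979 CPM in WT and 6494 to 7555 CPM in F121A (adjusted p = 0.367 over all libraries, 0.00773 over those at 6 h). Ifnb1 was at 3.26 to 5.64 CPM in WT and 2.26 to 3.58 CPM in F121A, so the groups overlapped, with an adjusted p of 0.256 over all libraries and 0.0413 over those at 6 h. The fit of all libraries shares its estimate of the spread with 0 h, where Il12b was low and uneven (4.11 ± 3.64 CPM in WT and 17.5 ± 12.5 CPM in F121A, SD, n = 6 each), and the part of this in the larger p was not tested. Counted over the 6 h libraries alone, 8 of 18 cytokines fell and 4 rose. Nos2, the inducible nitric oxide synthase, passed under neither (0.32 ± 0.31), and Il27 (0.39 ± 0.28, adjusted p = 0.432) was higher in all F121A libraries without passing the test.

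Some NF-kB genes and some inhibitors of the NF-kB and MAP kinase pathways were called higher, and none was called lower. Over all genes tested, 8.01% were higher and 3.49% lower. Of 20 genes of the NF-kB list 9 rose, with a median log2 fold change of 0.38 over the list. The subunit Rela was at 34, 43.3 and 60.5 CPM in WT and 87.0, 109 and 161 CPM in F121A, with no overlap (1.42 ± 0.16, adjusted p = 2.0e-08). Relb (0.68 ± 0.13) and the atypical inhibitor Bcl3 (1.10) rose as well. The others that rose were Nfkbia (0.42), which encodes IkB-alpha, Nfkbid (0.41), Tnfaip3 (0.51), which encodes the deubiquitinase A20, its partner Tnip3 (0.66 ± 0.12), Ikbke (0.48) and Traf1 (0.36). The count was 6 of 20 without WT replicate 5 and 6 of 20 with only the 6 h libraries in the fit. Among 21 feedback regulators of MAP kinases and cytokines 6 rose, with a median of 0.40. Beside Dusp2 and Il10 these were Dusp1 (170.2, 227 and 267 CPM in WT, 581, 590.4 and 703 CPM in F121A, 1.47 ± 0.15), the mRNA-destabilizing Zfp36 (1.15), Socs3 (1.05) and Stat3 (0.43). Immediate-early genes rose in 5 of 17 cases, namely Ier2 (0.90 ± 0.15), Junb (0.89 ± 0.27), Fosl2 (0.54 ± 0.14), Ier3 (0.46 ± 0.12) and Atf3 (0.33 ± 0.10). Among these Junb varied widely, from 232 to 1123 CPM in WT and from 597 to 1527 CPM in F121A, and lost its call without WT replicate 5 (adjusted p = 0.0686). Atf3 lost its call there too (adjusted p = 0.0818), which left 3 immediate-early genes higher.

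The promoters of these genes were read because the chemokines that fell and the inhibitors that rose are both textbook NF-kB targets. The windows are RefSeq sequences on GRCm38.p6, 250 bases before to 50 after each start, searched on both strands for a kappaB site (GGG, any 2 bases, TTTCC), with the match in capitals. The genes shown were chosen after their values were seen.
Cxcl1, chr5:90891159-90891198, plus strand: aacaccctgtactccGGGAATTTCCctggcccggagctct
Cxcl2, chr5:90903787-90903826, plus strand: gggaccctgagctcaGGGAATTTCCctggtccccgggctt
Cxcl3, chr5:90786013-90786052, plus strand: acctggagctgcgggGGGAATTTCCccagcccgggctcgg
Nfkbia, chr12:55492652-55492691, minus strand: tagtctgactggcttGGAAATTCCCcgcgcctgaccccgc
Tnfaip3, chr10:19015398-19015437, minus strand: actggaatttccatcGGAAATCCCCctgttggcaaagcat

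The matches shown lie 71, 97 and 73 bases before the start of Cxcl1, Cxcl2 and Cxcl3, which fell, and 29 and 12 bases before that of Nfkbia and Tnfaip3, which rose. Cxcl1 holds another match 89 bases and Cxcl2 another 78 bases before its start. Matches stood before genes that moved in opposite directions. The next counts are of genes with a window, with a match in any window of the gene. A match stood in 25 of 754 higher genes (3.32%), 8 of 312 lower genes (2.56%) and 192 of 8747 tested genes (2.20%). Per window, 1.63% of all 32851 held a match, a share not comparable with those per gene.

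Type I interferon-stimulated genes held the largest share of higher calls among the function lists. Of 39 tested, 20 rose and 1 (Ifi44, -0.34) fell, with a median log2 fold change of 0.29. Cmpk2, which makes nucleotides for mitochondrial DNA, had 980.4, 1133 and 1332 CPM in WT and 1944, 2209.9 and 2339.6 CPM in F121A (0.98 ± 0.14, adjusted p = 2.2e-06). Rsad2 (viperin), the neighbouring antiviral gene, had 2787, 2994 and 3251 CPM in WT and 4448, 5147 and 5587 CPM in F121A (0.82 ± 0.13, adjusted p = 1.6e-05). Ifit3 rose by 0.87 ± 0.14 from 139 to 205 CPM in WT to 265 to 333 CPM in F121A, though near-identical Ifit3 copies make its count uncertain. None of these overlapped between the groups. Isg15 (1.14), Mx1 (0.68), Mx2 (0.75), the transcription factors Irf7 (0.72) and Stat2 (0.43), and Oas2 (0.47) were also among those that rose. The count of higher genes was 19 of 39 without WT replicate 1, where none was lower, and 19 without replicate 5, and 12 when replicates were summed in threes.

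Sensors of foreign nucleic acid rose in 7 of 17 cases with none falling. They were the RNA helicases Ddx58 (RIG-I, 0.56 ± 0.10), Ifih1 (MDA5, 0.38) and Dhx58 (LGP2, 0.49 ± 0.08), the endosomal receptors Tlr3 (0.58) and Tlr9 (0.68), the DNA-sensing adaptor Tmem173 (STING, 0.38) and the RNA editor Adar (0.27 ± 0.07). Some of these genes also belong to the interferon-stimulated list. The inflammasome adaptor Pycard (0.64 ± 0.14) and Casp1 (0.31 ± 0.09) were the 2 of 14 inflammasome genes that rose. Toll-like receptor signalling genes rose in 6 cases and fell in 3 of 27: Myd88 rose by 0.42 ± 0.10 and Tlr4, the LPS receptor, by 0.49. The LPS co-receptor Cd14 fell from 1495, 2435 and 2719 CPM to 1183, 1348 and 1549.6 CPM (-0.76 ± 0.16, adjusted p = 1.0e-03), and 4 of 6 F121A libraries were below all WT libraries. The inhibitor Irak3 fell by 0.43 ± 0.10 on the log2 scale.

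Targets of interferon-gamma gave a different count. Of 32 interferon-gamma GTPases and targets 2 rose, Cxcl11 and the transcription factor Irf8 (0.36 ± 0.12, adjusted p = 0.0348), none fell, and the median was 0.03. Irf8 lost its call without WT replicate 5 (adjusted p = 0.112). The share is close to the 8.01% of all genes. Antigen presentation was likewise near level: Erap1 (-0.35 ± 0.11) was the 1 call of 20 class I genes, and H2-Eb1 (-0.34 ± 0.10) and the co-stimulator Cd86 (0.38 ± 0.13, adjusted p = 0.05 after rounding, just under the threshold) were the calls among 16 class II genes. Cd86 lost its call without either doubted WT library, as did Erap1 and H2-Eb1 without WT replicate 1 (adjusted p = 0.0700 and 0.0583), where 2 class I genes were higher.

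**Figure D3:**
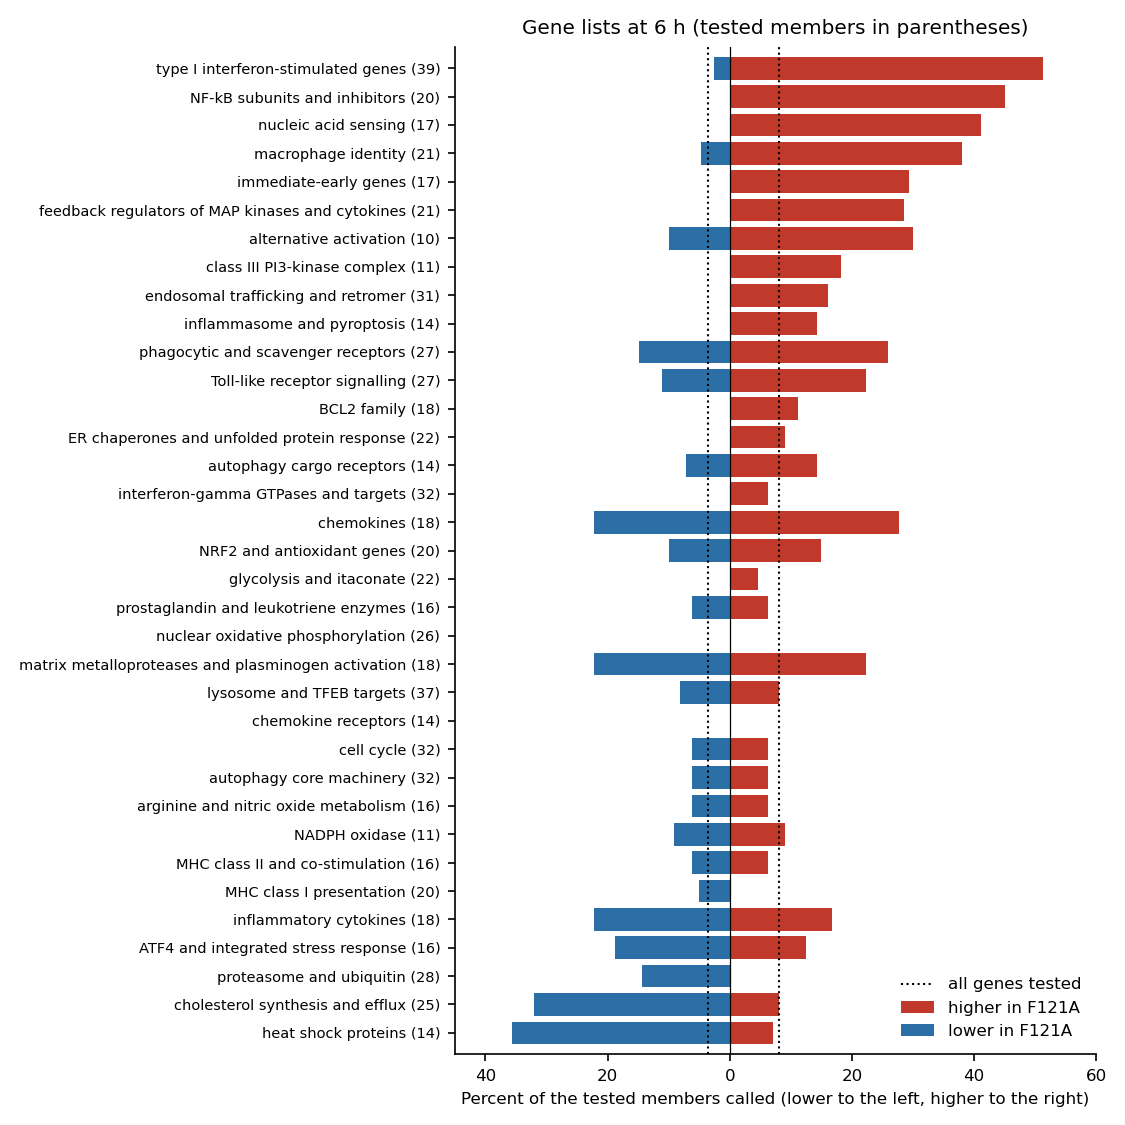
Percent of the tested members of each gene list that were called at 6 h (x axis), lower in F121A to the left in blue and higher to the right in red, with the number tested in parentheses. Dotted lines mark the same percentages over all genes tested, 3.49% and 8.01%; type I interferon-stimulated genes reach farthest right and heat shock proteins farthest left.

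Genes of macrophage identity and of phagocytosis also differed. Of 21 identity genes 8 rose and 1 (Cd14) fell. Complement C1qc had 549.9, 739.6 and 1028 CPM in WT and 964, 1412 and 1548 CPM in F121A (0.88 ± 0.15, adjusted p = 7.4e-05), with 5 of 6 F121A libraries above all WT. C1qa (0.62 ± 0.12) and C1qb (0.38) rose with it, as did the transcription factor Sfpi1 (PU.1, 0.70). Fcgr1, the high-affinity IgG receptor, had 233, 290.4 and 322 CPM in WT and 569, 626 and 648 CPM in F121A without overlap (1.18 ± 0.10, adjusted p = 2.9e-11). Among 27 phagocytic and scavenger receptors 7 rose and 4 fell. The IgG receptors Fcgr4 (0.59 ± 0.12) and Fcgr3 (0.44) and the mannose receptor Mrc1 (0.98 ± 0.18) were among the first, and the C-type lectins Clec7a (-0.33), Clec4d (-0.35) and Clec4e (-0.53) and Trem1 (-0.84) were the latter. Of 10 alternative activation genes Il4ra, Mrc1 and Il10 rose, and Chi3l3 (-0.75 ± 0.24), which has near-identical copies, fell. The call of Chi3l3 was lost without WT replicate 1 (adjusted p = 0.0946) or 5 (adjusted p = 0.0591).

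Markers of other cell types were checked because they could move with the groups. The 10 macrophage markers summed to 40459, 41697 and 45237 CPM in WT (lowest, median, highest) and 35608, 37233 and 37922 CPM in F121A, most of it Lyz2. The 12 neutrophil markers summed to 62.7, 71.2 and 74.4 CPM in WT and 70.1, 83.5 and 95.8 CPM in F121A, of which Csf3r was the largest share and rose (0.88), while S100a8 (-0.92), S100a9 (-0.92), Ngp (-0.87) and Mmp8 (-0.57) fell, and Elane and Retnlg were at 0 in all libraries. Monocyte markers summed to 141 to 183 CPM in WT and 175 to 235 CPM in F121A, and dendritic cell markers to 64.6 to 77.7 and 55.0 to 73.1 CPM. The T and NK cell list summed to 41 to 53.6 CPM in WT and 63.3 to 74.9 CPM in F121A, nearly all of it Lck, with Cd3e, Cd3g, Trac and Ncr1 at 0 in all 12 libraries. The mast cell and basophil list summed to 38.8 to 48.8 and 48.0 to 61.9 CPM, nearly all of it Hdc, with Mcpt8 and Mcpt4 at 0. The B cell, stromal, osteoclast and erythroid lists each summed to 27.1 CPM or less in every library. The part of other cell types in the differences above was not tested.

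Several sterol synthesis enzymes were among the genes that fell. Of 25 genes of cholesterol synthesis and efflux 8 fell and 2 rose, with a median log2 fold change of -0.18. Hmgcs1, which makes the first committed intermediate of the pathway, had 39.7, 42.8 and 60.2 CPM in WT and 20.9, 24.7 and 27.9 CPM in F121A (-0.83 ± 0.10, adjusted p = 7.1e-08). Idi1 had 7.80, 10.3 and 16.6 CPM in WT and 3.93, 4.49 and 5.06 CPM in F121A (-1.25 ± 0.22, adjusted p = 1.0e-04). Sc4mol (Msmo1) had 16.7, 19.8 and 23.8 CPM in WT and 9.68, 11.4 and 13.5 CPM in F121A (-0.77 ± 0.11, adjusted p = 2.4e-06). The groups did not overlap for these enzymes, which act early, midway and late in the pathway. Fdps (-0.97), Cyp51 (-0.58) and Sqle (-0.47) also fell, whereas Abcg1 (0.38) and Apoe (0.68), which act in cholesterol efflux, rose. Without WT replicate 1, 6 of the 25 fell, and without replicate 5, 10 fell. The Hmgcs1 promoter holds a match to TCACNCCAC (a sterol response element, capitals, searched on both strands) 137 bases before its start.
Hmgcs1, chr13:119690199-119690237, plus strand: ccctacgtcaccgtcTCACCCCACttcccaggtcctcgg

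Counted per gene, such a match stood in the windows of 4 lower genes (1.28%), 8 higher genes (1.06%) and 117 tested genes (1.34%). Per window, 1.24% of all windows held one, a share not comparable with those per gene.

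Some heat shock and proteasome genes fell. Of 14 heat shock genes 5 fell and 1 (Bag3, 0.70) rose. The cytosolic chaperone Hsp90ab1 had 1059, 1091 and 1141 CPM in WT and 701, 725 and 856 CPM in F121A (-0.50 ± 0.08, adjusted p = 3.3e-05). Hsp90aa1 (-0.53 ± 0.09), Hsph1 (-0.62) and the mitochondrial chaperones Hspa9 (-0.57 ± 0.08) and Hspd1 (-0.57) fell as well, and this count of 5 was the same in every alternative run. Of 28 proteasome and ubiquitin genes 4 fell, Psma1, Psma2, Psma6 and Psmc6, by 0.29 to 0.35 on the log2 scale, and none rose. With the GC trend removed Psma2, Psma6 and Psmc6 lost their call (adjusted p = 0.116, 0.0511 and 0.194). ER chaperone genes gave 2 higher calls of 22, Atf6 (0.44 ± 0.09) and Creld2 (0.40 ± 0.10).

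Stress and metabolic lists were divided or level. Of 16 ATF4 target genes Asns (-0.62 ± 0.16), Mthfd2 (-0.51 ± 0.16) and Slc7a11 fell and Psat1 (0.76 ± 0.12) and Nupr1 (0.72 ± 0.11) rose. Of 20 NRF2 and antioxidant genes Slc7a11 and Srxn1 (-0.36 ± 0.11) fell and Gclm (0.61 ± 0.21), Gsr (0.54 ± 0.14) and Keap1 (0.57 ± 0.13) rose. Without WT replicate 5, 5 NRF2 genes and 5 ATF4 targets were lower, against 2 and 3 with it. Without WT replicate 1, Gclm (adjusted p = 0.124) and Mthfd2 (adjusted p = 0.0637) lost their call. In arginine and nitric oxide metabolism the cofactor enzyme Gch1 rose (0.87 ± 0.19) and the arginine transporter Slc7a1 fell (-0.69 ± 0.17), of 16 genes. Glycolysis and itaconate genes had 1 call of 22, Pfkfb3 (85.2, 90.1 and 100.2 CPM in WT, 129, 148 and 166 CPM in F121A, 0.74 ± 0.12). None of 26 nuclear genes of oxidative phosphorylation was called by edgeR, by DESeq2 or in the other alternatives run, with 2 at an unadjusted p under 0.05. The most abundant were Atp5b (-0.13 ± 0.09) and Atp5a1 (0.00 ± 0.08). Cell cycle genes gave 2 higher and 2 lower calls of 32, with Mki67 at -0.62 ± 0.17 and Ccnd1 at 0.86 ± 0.17, Ccnb1 at -1.30 ± 0.42 and Tpx2 at 0.43 ± 0.14. Ccnb1 and Tpx2 lost their call without WT replicate 1 (adjusted p = 0.224 and 0.0602).

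Autophagy genes outside the Beclin1 complex changed in few cases. Of 32 core genes, the conjugating enzyme Atg3 (0.55 ± 0.08) and the membrane scramblase Atg9a (0.48 ± 0.14) rose and Atg4c (-0.83 ± 0.20) and Gabarapl1 (-0.41 ± 0.12) fell, with a median of 0.00. Atg9a lost its call without WT replicate 5 (adjusted p = 0.0623) and Gabarapl1 without WT replicate 1 (adjusted p = 0.0590). Atg3 had 70.9, 86.5 and 98.9 CPM in WT and 106, 120.1 and 131 CPM in F121A without overlap. Of 14 cargo receptors, Optn (30.6, 35.6 and 38.6 CPM in WT, 54.9, 56.7 and 61.6 CPM in F121A, 0.75 ± 0.10) and Tax1bp1 (632, 746 and 915 CPM, then 969.7, 1130.2 and 1277 CPM, 0.64 ± 0.09) rose. The ribosome-autophagy receptor Nufip1 fell (-0.50 ± 0.14). Optn and Tax1bp1 did not overlap between the groups. Lysosomal genes gave 3 higher calls of 37, among them Lamp1 and Atp6v0d2 (0.66), and 3 lower, Ctsd (-0.34), Ctss (-0.36) and the calcium channel Mcoln1 (-0.57 ± 0.15). The list's median was -0.07, far from the value of Lamp1. Endosomal trafficking genes rose in 5 of 31 cases: Snx20, Snx18, the retromer-associated Snx6 (0.44 ± 0.10) and Snx2 (0.43 ± 0.10), and Rab5c (0.40 ± 0.13), with a median of -0.01. Rab5c lost its call without WT replicate 1 (adjusted p = 0.0607) or 5 (adjusted p = 0.117).

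The remaining lists held a few calls each. Of 18 matrix protease and plasminogen genes 4 rose, led by Timp1 (10.7, 15.6 and 20.5 CPM in WT, 35.6, 41.8 and 56.4 CPM in F121A) and the membrane-bound protease Mmp14 (1.01 ± 0.15), and 4 fell, among them Mmp8 and Mmp12 (-0.57). Of 16 prostaglandin and leukotriene genes the receptor Ptger4 (0.37 ± 0.11) rose and Alox5ap (-0.39 ± 0.11) fell, and Ptger4 lost its call without WT replicate 5 (adjusted p = 0.0615). Of 11 NADPH oxidase genes Rac1 rose and the proton channel Hvcn1 fell (19.3, 23.8 and 25.2 CPM in WT, 11.5, 12.7 and 15.6 CPM in F121A, -0.76 ± 0.18).

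The other times asked which of these differences belonged to 6 h. The tests at 0 h called 338 genes (2.94%) and those at 24 h called 828 (7.20%). Of the 1322 calls at 6 h, 135 were also called at 0 h and 258 at 24 h. No library enters more than 1 time. A direct test of whether the difference at 6 h departed from that at 0 h passed for 380 genes (3.30%), and from that at 24 h for 504 (4.38%). These tests share the 6 h libraries.

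The 5 departures from 0 h of smallest p were those of Ggta1 (by 1.54 ± 0.14 on the log2 scale), Il4ra (1.62), Cyth4 (1.40), Rin2 (1.32) and Mxd1 (1.15). Ggta1, the galactosyltransferase that makes the alpha-gal epitope, had 33.2, 35.4 and 54.3 CPM in WT and 85.3, 95.1 and 107 CPM in F121A at 6 h, with log2 fold changes of -0.17 at 0 h, 1.37 at 6 h and 0.06 at 24 h. It was called at 6 h and not at the other times. Against 24 h the 5 departures of smallest p were those of Ggta1 (1.31), the phosphatase Ptpn1 (1.43), the creatine synthesis enzyme Gatm (1.89), Itm2c (1.12) and Sc4mol (-1.15). Gatm was called in opposite directions, 1.22 ± 0.16 at 6 h and -0.67 at 24 h, and so was Sc4mol, at -0.77 at 6 h and 0.38 at 24 h. Optn (0.89, adjusted p = 4.3e-04), Tax1bp1 (0.82, adjusted p = 1.2e-04) and Cxcl2 (-1.36, adjusted p = 1.1e-06) also departed from 0 h.

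Another group was higher in F121A before stimulation as well. Lamp1 differed by 3.62 at 0 h, 2.11 at 6 h and 1.12 at 24 h, Snx20 by 3.16, 3.69 and 3.10, and Rac1 by 1.88, 1.77 and 1.79, all called. Zfand5 (2.35) and Snx18 (1.88) were called at 0 h and 6 h but stood at 0.12 and -0.00 at 24 h. In all, 29 genes were called at the 3 times, 17 higher and 7 lower at every time. At the low end of expression, Rnf223 had 60 counts over the 6 WT libraries at 6 h and 0 over the 6 F121A libraries. Set against the limit of 3 counts over the group (0.0655 CPM), its mean of 1.26 CPM in WT was at least 19.2-fold higher than in F121A. Dapk3 (0 to 0.480 CPM in WT, 0.860 to 2.92 CPM in F121A) and Heatr2 (0.0959 to 0.836 and 0.867 to 2.37 CPM) were higher at all times, and Arhgef18 (0.576 to 1.08 and 0 to 0.357 CPM) was lower. These 4 were chosen after their values were seen.

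Il6 and Il1a were called at all 3 times but not in one direction. Il6 was higher in F121A at 0 h (2.15) and lower at 6 h (-0.76) and 24 h (-0.92), and Il1a showed the same order (2.0, -0.59 and -0.80). The inflammatory cytokine list gave 6 higher calls and none lower at 0 h, and 2 higher and 5 lower at 24 h. Levels at 0 h are not given for Il6, Il1a or this list, and Il12b, a member of it, was low and uneven there. Interferon-gamma targets gave 13 higher calls of 32 at 0 h, 2 at 6 h and 4 at 24 h. Type I interferon-stimulated genes were higher in 9 cases at 0 h, 20 at 6 h and 12 at 24 h, and none fell at 0 h or 24 h. ER chaperone genes had 12 lower calls of 22 at 24 h and none at 6 h.

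**Figure D4:**
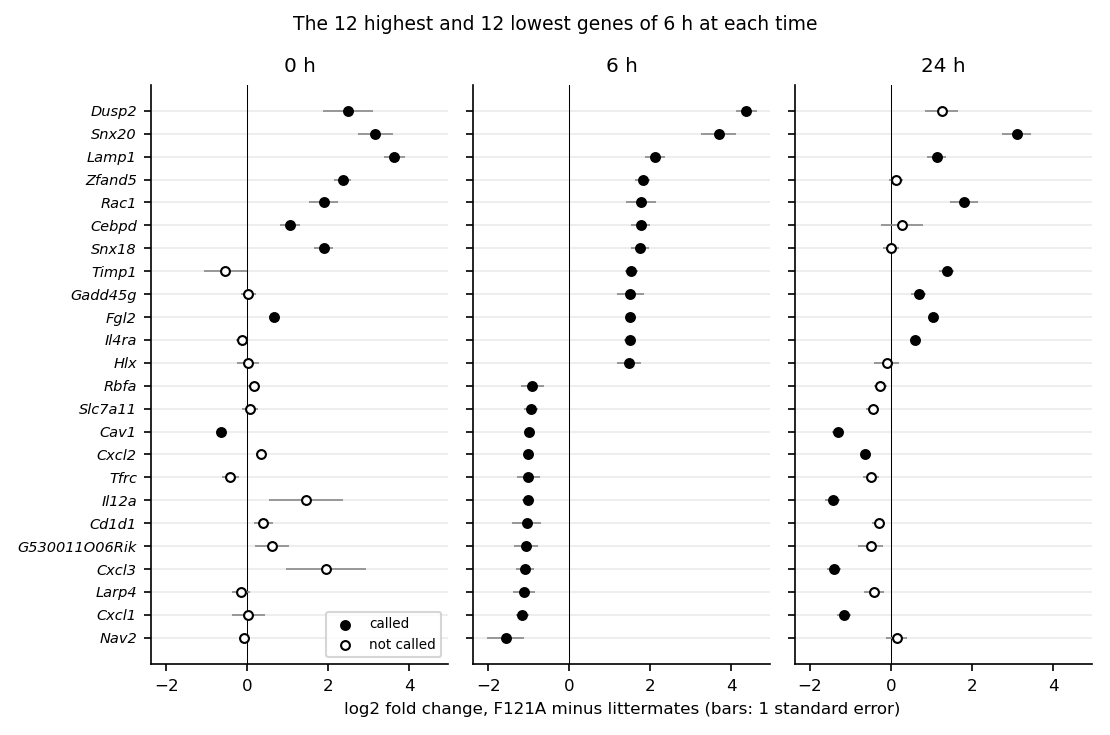
Log2 fold change of F121A over littermates (x axis, bars 1 standard error) at 0 h, 6 h and 24 h for the 12 highest and 12 lowest genes of 6 h; filled circles were called, open circles were not. Snx20, Lamp1 and Rac1 lie to the right at all 3 times, whereas Il4ra and Timp1 lie near or below 0 at 0 h, and Cav1 lies to the left throughout.

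The series allows F121A, which keeps Beclin1, to be set beside its deletion. The KO2 cohort has 16 libraries at 6 h, 8 of Beclin1flox/flox-LysM-Cre+ and 8 of Beclin1flox/flox-LysM-Cre- macrophages, and shares no library with the KI cohort. In a joint edgeR fit, Becn1 was at a mean of 27.4 CPM in those controls and 3.16 CPM in the knockout (-3.29). The knockout changed 1902 of 11782 genes (16.1%), and the F121A difference departed from the knockout difference for 1434 (12.2%). All KO2 controls at 6 h had Xist at 70 to 116 CPM, whereas the knockout libraries had Xist at 0.762 CPM or less and Y-linked genes at 43.9 to 66.6 CPM, so sex and genotype cannot be told apart in KO2. Besides Xist (8.44) and Becn1 (3.33), the departures of smallest p were those of Dusp2 (4.81), Cyth4 (2.28) and Il4ra (2.85). Il4ra rose in F121A and fell in the knockout (-1.37), as did the guanine exchange factor Cyth4 (1.22 and -1.07).

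Some genes moved in opposite directions in the mutants. Of 920 genes higher in F121A, 101 (11%) were also higher in the knockout and 173 (18.8%) were lower there. Of 400 genes lower in F121A, 59 (14.8%) were also lower in the knockout and 67 (16.8%) were higher. Over all genes of the joint fit the knockout was higher for 8.86% and lower for 7.28%. Cxcl1 (1.88), Cxcl2 (0.69), Cxcl3 (1.33), Il12a (1.79), Il6 (0.83), Cd14 (0.64) and Slc7a11 (0.54) rose in the knockout and fell in F121A. Ccl7 (-1.40), C1qc (-0.67), Fcgr1 (-0.44), Tnip3 (-0.90) and Dusp1 (-0.48) fell in the knockout and rose in F121A. Among type I interferon-stimulated and sensor genes, Cmpk2 (0.61), Rsad2 (0.46), Ifit3 (0.67) and Ddx58 (0.62) rose in the knockout too, and their departures did not pass the test (adjusted p = 0.433, 0.335, 0.681 and 0.866).

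**Figure D5:**
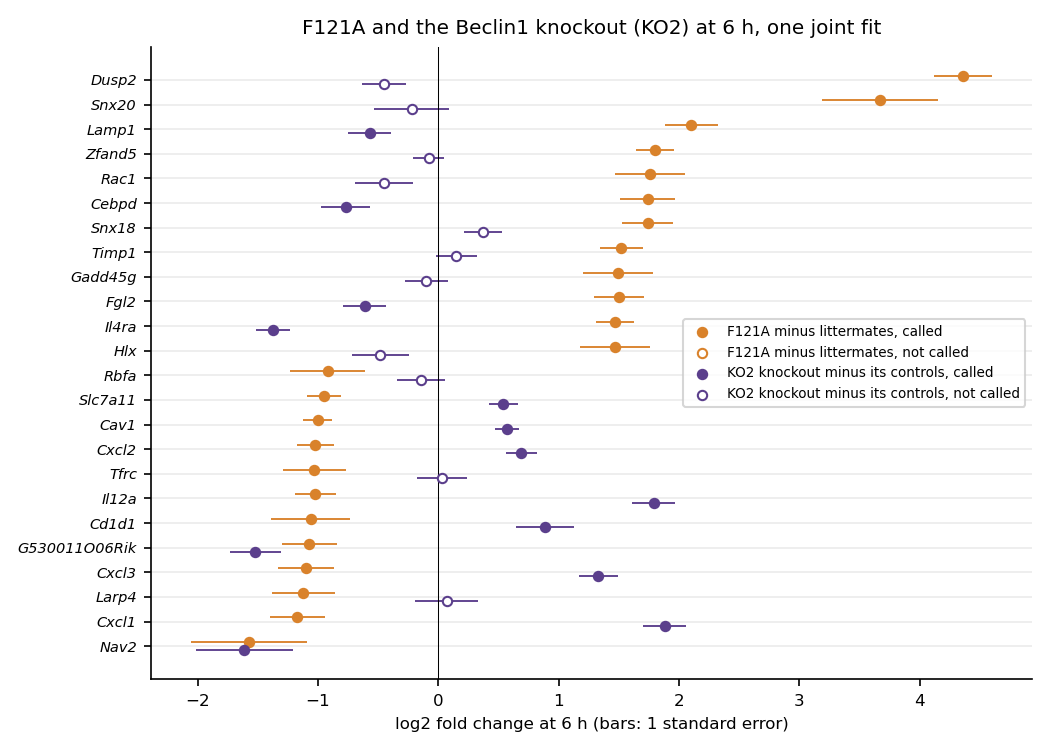
Log2 fold change at 6 h (x axis, bars 1 standard error) in F121A over littermates (orange) and in the KO2 knockout over its controls (purple) for the 12 highest and 12 lowest genes of F121A, from one joint fit; filled circles were called. Cxcl1, Cxcl2, Cxcl3, Il12a, Cav1, Cd1d1 and Slc7a11 lie on opposite sides of 0 in the mutants, and G530011O06Rik and Nav2 on the same side.

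The 12 highest and 12 lowest genes were also read in the other cohort's controls. In KO2 controls at 6 h Dusp2 had 215, 355 and 382 CPM (lowest, median, highest), which overlaps the F121A libraries and lies far above the 9.31 to 22.1 CPM of the KI littermates. Lamp1 had 1353, 1515 and 1644 CPM there, and Snx20 had 30.9, 105 and 128 CPM, again above every KI littermate library. For 8 of the 12 highest genes all 8 KO2 controls were above all 6 KI littermates, namely Dusp2, Snx20, Lamp1, Zfand5, Rac1, Cebpd, Snx18 and Gadd45g. For the first 7 of these the KO2 controls overlapped F121A. Fgl2 (432, 1029 and 1362 CPM) and Il4ra (473, 1059 and 1287 CPM) did not overlap F121A in KO2 controls. Among the 12 lowest genes all KO2 controls were above all KI littermates for 3, Cxcl1, Cxcl3 and Cav1. They were below all KI littermates for 1, Il12a. Il12a had 2.94, 5.33 and 8.19 CPM in KO2 controls, below every F121A library too. For 3 of these 12, Nav2, Larp4 and Cd1d1, the KO2 controls overlapped F121A. Cohort and genotype background cannot be told apart in such a comparison of levels, and no test was made across cohorts. The genes were chosen by their KI values at 6 h, which can favour such separations. The share of all tested genes that separates the control groups was not counted.

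Genes near the altered locus and base composition were examined last. Of 45 tested genes starting within 1 Mb of Becn1 on chromosome 11, 8 were higher and 1 was lower. They included Stat3 (0.43), Stat5a (0.77), Stat5b (0.71), Cnp (0.84), Dhx58, Rab5c, Nkiras2 (0.44) and Tmem106a (0.42). Within 5 Mb the counts were 16 higher and 7 lower of 130. Over all genes tested, 8.01% were higher and 3.49% were lower. DNA linked to the knock-in allele cannot be told apart from the allele. Across chromosomes the share of tested genes called ran from 9.19% to 14.5%. The transcripts of higher genes had a median GC content of 51.6% and those of lower genes 46.3%, against 49.1% for all tested genes. The mean GC content of libraries was 46.4% to 47.8% in WT and 47.6% to 48.0% in F121A. With each library's GC trend removed, 1321 genes were called, of which 1138 were among the 1322.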

How the data were processed

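RNA sequencing counts of the KI cohort (36 libraries, 6 per genotype and time) and of the KO2 cohort were used as the authors deposited them: whole-number counts per gene symbol, not normalized. TopHat, HTSeq and mm10 are named per the submitters' processing notes; their versions and settings are not given in the sources used here. Genes were filtered with filterByExpr, scaled by TMM and tested with edgeR's quasi-likelihood test (edgeR 4.0.16, R 4.3.3) on all 6 genotype-by-time groups of the cohort, with Benjamini-Hochberg adjustment at 0.05. CPM values in the text are counts scaled by the library's total and not by TMM. F121A and KO2 were compared in 1 joint fit of 12 groups. Alternatives used DESeq2 1.42.0, other scaling, filters and samples. The procedure was tested on simulated data.

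Members and gene lists were chosen with earlier results of these data known. Named genes were Becn1, Lyz2, all of the Beclin1 complex and BCL2 lists, the 12 highest and 12 lowest called genes whose average log2 CPM reached 3, up to 3 called members of smallest p per list (all where 5 or fewer were called), the 2 most abundant of a list with no call, and the 5 of smallest p per difference. Other genes named were chosen after their values were seen. Same-numbered libraries did not deviate together (correlations of -0.00448 to 0.0618), so they were not paired. Library pairs within a group differed by more than sampling noise (chi-square per degree of freedom of at least 4.52 over 30 pairs). A few list members that the rule would name are not reported here.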

Additional observations from a re-analysis of the deposited data

Results flagged for a closer look

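Among the 6 WT libraries at 6 h, replicate 5 lay far above the other 5 for G530011O06Rik (60.3 CPM), Larp4 (16.9 CPM) and Tfrc (8.03 CPM), and replicate 6 did so for Rbfa (2.98 CPM). WT replicate 5 had the highest share of mitochondrially encoded counts (5.40%) and the lowest mean GC content (46.4%), each far from the other WT libraries. Chance alone sets apart a library in about 1 in 20 groups.

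The F121A difference at 6 h departed from that at 0 h for 380 genes, with the smallest p for Ggta1 (1.54 on the log2 scale), Cyth4 (1.40), Il4ra (1.62), Mxd1 (1.15) and Rin2 (1.32). It departed from that at 24 h for 504 genes, with the smallest p for Ggta1 (1.31), Ptpn1 (1.43), Gatm (1.89), Sc4mol (-1.15) and Itm2c (1.12). It departed from the KO2 knockout difference for 1434 genes, with the smallest p for Xist (8.44), Becn1 (3.33), Dusp2 (4.81), Cyth4 (2.28) and Il4ra (2.85). The sex of the KO2 knockout libraries cannot be told apart from their genotype.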

How the results depend on the processing

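The count of 1322 calls at 6 h was 750 with replicate numbers summed in threes and 807 when an absolute log2 fold change of at least 0.5 was also required. The other settings gave 1158 to 1477, and no named gene reversed. Of 119 called named genes, 81 kept their call in every setting that gave them a value, and 92 did so with sums in threes set aside. Sums in threes ended 33 of these calls, and leaving out WT replicate 1 or 5 ended 13 and 14. Leaving out WT replicate 1 or WT replicate 5 gave 1181 and 1199 calls, of which 1108 and 1060 were among the 1322. With the replicate number as a block the count was 1392 at 6 h, 398 for the departure from 0 h, 581 for that from 24 h and 1499 for that from KO2, and of the named genes only Cd1d1 lost its call; the libraries share only a number. The share of calls that were higher was 69.7%, and it was 58.3% with no filter on low counts and 59.7% with the 12 libraries at 6 h alone. Departures from 0 h numbered 355 to 527, from 24 h 418 to 690 and from KO2 1079 to 1499. Sums in threes, the GC trend and leaving out WT replicate 5 were chosen after seeing the data. Depth limits genes near 1 CPM, such as Bcl2, Bbc3 and Nav2.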
